A study of Saccharomyces cerevisiae with 20 samples.

Results

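The genes described here encode the subunits of the budding yeast (Saccharomyces cerevisiae) proteasome. They were chosen by name, as the 14 subunits of the 20S core, the 10 of the base and the 9 of the lid of the 19S regulatory particle, and all 33 were found among the 6106 transcripts of the quantification table. The rule uses the names alone and no measured value. The study asked which RNAs carry an NAD cap, in which nicotinamide adenine dinucleotide takes the place of the m7G cap at the 5' end. RNA was measured in 3 biological replicates of WT cells and 3 of xrn1-H41A cells, both in the BY4741 background and grown on a rich yeast extract and peptone medium. The mutant carries a substitution in the gene of Xrn1, a 5' to 3' exoribonuclease that also removes NAD caps, and the study describes the mutant protein as deficient in that removal while keeping its exoribonuclease activity. Each strain was sequenced in 3 ways, which gives 18 libraries in 6 groups. Standard RNA-seq measured RNA without selection for a cap. In SPAAC, ADP-ribosyl cyclase exchanged the nicotinamide for an azide, biotin was attached by copper-free click chemistry, and biotinylated RNA was recovered on streptavidin. NADcapPro added a prior treatment with Dcs1, a decapping enzyme that hydrolyses m7G caps.

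The proteasome degrades proteins that carry ubiquitin chains. Its core is a stack of rings, with an outer ring of alpha subunits at each end that controls entry and inner rings of beta subunits that hold the proteolytic sites. The regulatory particle sits on the core. Its base contains the Rpt ATPases, which unfold substrates, with the scaffolds Rpn1 and Rpn2 and the ubiquitin receptors Rpn10 and Rpn13, and its lid contains Rpn11, which removes ubiquitin as substrates enter. In yeast the subunit genes are controlled together by the transcription factor Rpn4, which binds a short promoter element called PACE (proteasome-associated control element). Rpn4 is itself a short-lived substrate of the proteasome.

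The PACE letters GGTGGCAAA were searched on both strands of the 300 bases before each start codon in the R64 reference genome. They were found before 27 of the 33 genes (81.8%), against 73 of 6007 nuclear coding genes (1.22%), members included. The element was present before 12 of 14 core genes, 8 of 10 base genes and 7 of 9 lid genes. The genes without these exact letters in that window were PRE5, PUP1, RPN8, RPN10, RPN13 and SEM1. The sequences below belong to genes with the highest or lowest values in the comparisons that follow. Each is read 5' to 3' in the orientation of the element, whose letters are in capitals, with the R64 position of the printed run and its strand.

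PRE9, chrVII:761223-761252, plus strand: ttaccctgcaGGTGGCAAAaaatttataga
PRE8, chrXIII:86840-86869, minus strand: agcttattaaGGTGGCAAAattgtccccgg
PRE3, chrX:435035-435064, plus strand: aacggaatccGGTGGCAAAaaagggaaaag
PRE1, chrV:177683-177712, plus strand: aaatctttacGGTGGCAAAaaataaagaaa
RPT6, chrVII:411351-411380, minus strand: atgcgagcgaGGTGGCAAAagttgtaatat
RPT5, chrXV:544855-544884, plus strand: gccaatatgtGGTGGCAAAaatgaattaat
RPT4, chrXV:813802-813831, plus strand: ctttcccttcGGTGGCAAAttccactattt
RPN2, chrIX:220800-220829, minus strand: atttattttcGGTGGCAAAactggatacat
RPN11, chrVI:153259-153288, plus strand: ggacctccaaGGTGGCAAAttcacaagaaa
RPN12, chrVI:252397-252426, minus strand: aatttcaatgGGTGGCAAAtaatgtgtaga

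The letters next to the element differed from gene to gene. All 27 sites lay between 75 bases (RPT6) and 174 bases (PUP3) before the start codon, with a median of 111. The element was in the orientation of the gene at 19 of them and in the opposite one at 8, as for RPT4 and RPN12 above.

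**Figure D1:**
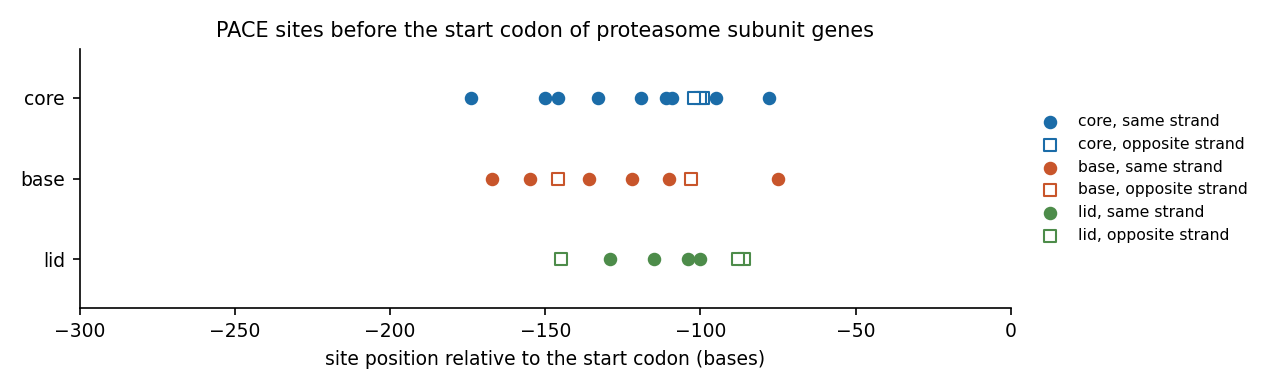
Position of each PACE site in bases before the start codon, with the start codon at 0, for core, base and lid genes. Filled circles are sites in the orientation of the gene and open squares are sites in the opposite one, and all 27 lie between 75 and 174 bases before the start codon.

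The member sequences are distinct among the transcripts quantified. None of the 33 shares a 31-base stretch with another transcript of the set, and none overlaps another annotated gene. The transcripts hold the coding sequence only, from 270 bases for SEM1 to 2982 for RPN1, and all come from 1 exon except PRE3, which has 2. Core transcripts are short, with a median of 762 bases, against 1309.5 for the base and 1182 for the lid. The lowest count of any member in any of the 18 libraries was 1313, so no value of a member below rests on few reads.

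Library totals ran from 13038320 to 33816015 counts. Replicate libraries of a group differed by more than sampling noise in all 18 pairs, with a chi-square of 3.04 to 13.1 per transcript. Of the genes disrupted in BY4741, MET17, LEU2 and URA3 were at most 0.23 CPM (counts scaled to a common library total) in any library. HIS3, the other one, was read at 98.1 to 155 TPM in RNA-seq. Transcripts of a cells (MFA1, MFA2, STE2, BAR1) were present in every library, and of the alpha-cell transcripts MF(ALPHA)1 and STE3 stayed at or under 3.34 TPM in RNA-seq whereas MF(ALPHA)2 reached 76.6. XRN1 itself stood at 500.3, 488 and 488 CPM after TMM normalization over the 18 libraries (normalised CPM) in WT RNA-seq and at 325, 319 and 325 in the mutant, a log2 difference of −0.61 (SE 0.038, adjusted p = 1.44e-09). A substitution cannot be checked from transcript counts. In bulk RNA, fewer cells with a transcript and fewer copies per cell cannot be told apart.

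In standard RNA-seq the proteasome transcripts were abundant, and the core transcripts were more abundant than those of the regulatory particle. Levels are given as TPM, in which each count is divided by the effective length of its transcript and the values sum to the same total in every library. The median member stood at 139.7 TPM in WT, above 87.4% of all transcripts, whose median was 25.2 TPM. The median over core transcripts was 202, 202 and 209 TPM in the 3 WT libraries. It was 109, 108 and 113 TPM for the base and 107, 102 and 104 TPM for the lid. The core medians lay above the base and lid medians in every library, and the ratio of core to base was 1.85 ± 0.0098 (SD, n = 3). With normalised counts per kilobase in place of TPM the ratio was 1.46 ± 0.042 (SD, n = 3) (TPM divides by the effective length, which is a smaller share of the length in short transcripts).

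Within the core the levels stayed close together. The 14 transcripts spanned a 1.95-fold range in WT, from PRE8 at 139.7 ± 6.83 TPM to PRE1 at 273 ± 15 TPM (SD, n = 3). PRE8 encodes an alpha subunit and PRE1 a beta subunit. The base spanned 3.40-fold, from RPN1, the lowest of all members at 70.3 ± 2.59 TPM, to RPN13 at 239 ± 8.21 TPM (SD, n = 3). In the lid, SEM1 stood alone at 478 ± 17.5 TPM, while the other 8 transcripts lay between 73.5 TPM (RPN9) and 139.5 TPM (RPN8). Sem1 is a small acidic protein that is also part of other complexes. As SEM1 is the shortest member, its TPM depends most on the effective length estimated for it.

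**Figure D2:**
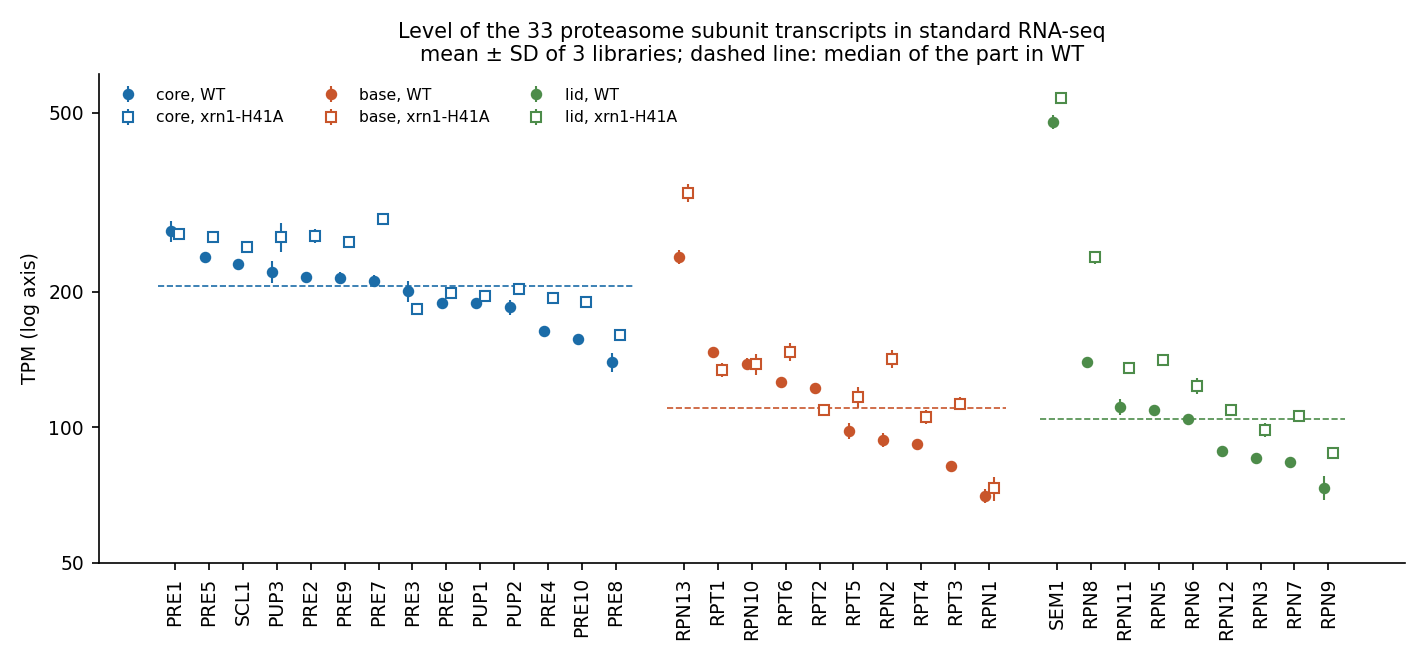
TPM of the 33 transcripts in standard RNA-seq on a log axis, with the mean and SD of 3 libraries, in WT (filled) and xrn1-H41A (open). Core transcripts lie between 139.7 and 273 TPM in WT, and the dashed medians of the base and the lid are 110.2 and 104.6 TPM against 206 TPM for the core.

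By the summed level of the 33 members, the strains lay furthest apart in NADcapPro. Sums, and the values of single members below, are in normalised CPM. In WT the sum was 7772, 7811 and 7884 in RNA-seq, 10378, 10299 and 10255 in SPAAC, and 10681, 10728 and 10832 in NADcapPro. In the mutant it was 7755, 7939 and 7972 in RNA-seq, 10060, 10052 and 10193 in SPAAC, and 6158, 6150 and 6203 in NADcapPro. The RNA-seq sums of the strains overlapped, the SPAAC sums of the mutant lay below those of WT without overlap but close to them, and the NADcapPro sums of the mutant lay far below those of WT. Both pulldowns of WT lay above RNA-seq, and in the mutant SPAAC lay above and NADcapPro below it. As a share of all counts, with no normalization, the members took 0.750% of WT RNA-seq, 0.792% of WT SPAAC and 1.14% of WT NADcapPro, and 0.855%, 0.893% and 0.826% of the same assays in the mutant. On that scale the strains did not overlap in any assay, with the mutant higher in RNA-seq and SPAAC and lower in NADcapPro. As with the sums, the mutant NADcapPro libraries were below mutant RNA-seq while the WT ones were above WT RNA-seq.

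The enrichment of each transcript in WT NADcapPro over WT RNA-seq was tested with edgeR's quasi-likelihood test, with Benjamini-Hochberg adjustment over all transcripts tested. A transcript is called higher or lower where its adjusted p did not exceed 0.01, and enriched or depleted where the change was also at least 2-fold, the thresholds of the study. Of the 33 members, 25 were higher and 5 lower, and RPN7, RPN11 and SEM1 were not called. Across all 6020 transcripts tested, 41.1% were higher and 40.5% lower. The median log2 fold change of the members was 0.39, against 0.01 for all transcripts. Most changes were small. RPT6, PRE9 and PRE3 were enriched at least 2-fold, or 3 of 33 members against 13.1% of all transcripts, and no member was depleted at least 2-fold, against 9.85%. With scaling by library totals the median of all transcripts was 0.15. That shift would put members just under 2-fold, such as PRE5 (0.99), past it. Core transcripts had the higher values, with 13 of 14 called higher and a median of 0.71. The base had 7 higher and 3 lower of 10 (median 0.28), and the lid 5 higher and 1 lower of 9 (median 0.16).

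The highest member was RPT6, an ATPase of the base. It stood at 279, 285 and 279 CPM in WT RNA-seq and at 728, 722 and 772 in WT NADcapPro, without overlap (log2 fold change 1.40, SE 0.034, adjusted p = 1.4e-13). The other ATPases ranged from −0.28 to 0.46, so the RPT6 value stood apart from those of its ring partners. Among the alpha subunits, PRE9 rose from 246, 247 and 244 CPM to 634, 633 and 652 (1.38, SE 0.031, adjusted p = 6.17e-14). Pre9 is the one core subunit that yeast can live without. PRE3, which encodes the beta subunit with caspase-like activity, was at 165, 172 and 190.4 CPM in RNA-seq and at 393, 412 and 388 in NADcapPro (1.17, SE 0.049, adjusted p = 2.56e-11). The other catalytic subunits rose less, with log2 fold changes of 0.75 for PUP1 and 0.31 for PRE2.

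PRE8 went the other way from every other core transcript. This alpha subunit transcript was at 162, 153 and 164 CPM in WT RNA-seq and at 81.1, 83.2 and 84.3 in NADcapPro (−0.94, SE 0.035, adjusted p = 6.77e-12). The lowest lid value was that of RPN3, at 247, 263 and 249 CPM in RNA-seq and 192, 194 and 183 in NADcapPro (−0.41, SE 0.040, adjusted p = 2.67e-07). RPN1, RPN2 and RPT5 of the base were the other 3 members called lower, with values of −0.31, −0.32 and −0.28. The promoter element did not divide the members: the median was 0.37 over the 27 genes with it and 0.55 over the 6 without it, and the ranges overlapped.

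SPAAC, which leaves m7G caps in place, gave the members a similar count of calls with different genes at the ends. Against WT RNA-seq, 26 members were higher and 5 lower in WT SPAAC, with a median of 0.56, where 39.9% of 5979 transcripts were higher and 39.6% lower. The transcripts enriched at least 2-fold were PRE6, RPN11, RPN10, PUP2 and PRE2 (4.77% of all transcripts), and RPN2 and RPN1 were depleted (15.9% of all). With scaling by library totals the split was 18 higher and 9 lower, and the median of all transcripts moved from 0.02 to −0.29. The enriched members had values from 1.04 (PRE2) to 1.17 (PRE6), so that shift would take them under 2-fold. PRE2, which encodes the subunit with chymotrypsin-like activity, was at 295, 295 and 304 CPM in WT RNA-seq and at 611, 628 and 614 in WT SPAAC (1.04, SE 0.032, adjusted p = 3.42e-13). RPN11, the deubiquitinase of the lid, was at 159, 166 and 175 CPM in RNA-seq and 361, 357 and 345 in SPAAC (1.08, SE 0.041, adjusted p = 3.29e-12).

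The scaffold transcripts of the base had the lowest SPAAC values. RPN2 was at 553, 539 and 562 CPM in WT RNA-seq and at 136, 130.0 and 136 in WT SPAAC (−2.05, SE 0.036, adjusted p = 8.34e-16). RPN1 was at 435, 419 and 435 CPM in RNA-seq and 205, 205 and 212 in SPAAC (−1.06, SE 0.035, adjusted p = 6.29e-13). These are the longest members, and for RPN1 the direction depended on how length was treated: with the trend of each library on transcript length removed it was 0.12 (adjusted p = 0.00565), while RPN2 stayed lower. In the mutant, SPAAC gave nearly the same values, with 27 members higher and 5 lower and a median of 0.60 (39.0% of transcripts higher and 38.6% lower), or 22 and 7 with library totals. PRE2, PRE6, RPN10, RPN11 and PRE8 were enriched at least 2-fold (4.39% of all) and RPN2 was depleted (13.8%). With library totals the median of all transcripts in the mutant moved to −0.38. That shift would take the enriched members, at most 1.16 (PRE2), under 2-fold. Across the 33 members the WT and mutant values of SPAAC over RNA-seq, which share no library, had a Pearson r of 0.98 and a Spearman rho of 0.94, given as a description since the members differ in length and share the libraries of each strain.

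**Figure D3:**
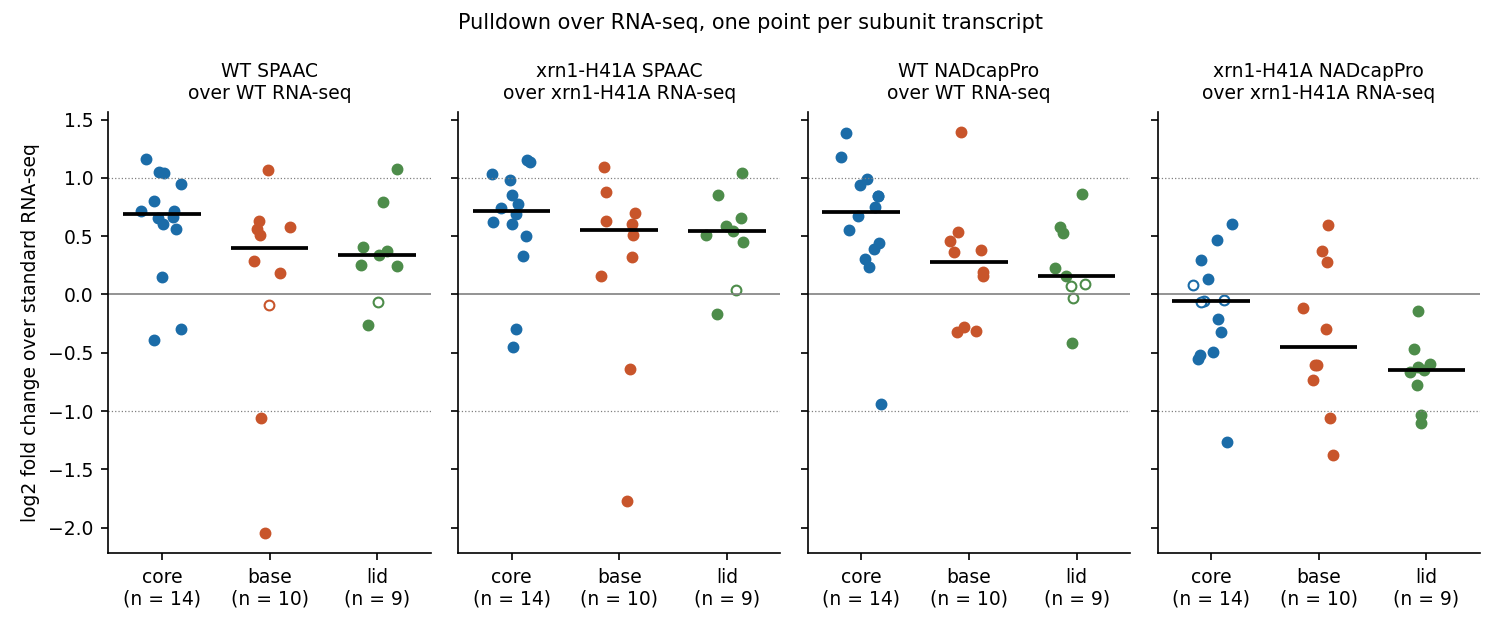
Log2 fold change over standard RNA-seq of each member in SPAAC and NADcapPro of both strains, by part of the proteasome. Filled points passed an adjusted p of 0.01, open points did not, black bars are medians and dotted lines mark a 2-fold change. The medians in NADcapPro are 0.71, 0.28 and 0.16 for core, base and lid in WT and −0.06, −0.45 and −0.65 in xrn1-H41A.

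Length moved with these values. Across the 33 members the Spearman rho between length and log2 fold change was −0.47 for WT NADcapPro and −0.46 for WT SPAAC, and across all transcripts it was −0.50 and −0.64. With the length trend removed, the member rho was close to 0 (−0.0047 and −0.030), the count for WT NADcapPro was 20 higher and 8 lower with a median of 0.17, and that for WT SPAAC 22 higher and 8 lower with a median of 0.24. The part of length in the gap between core and regulatory particle was not otherwise tested. Abundance moved with these values as well. Across all transcripts the Spearman rho with mean RNA-seq TPM was 0.40 for WT SPAAC and 0.48 for mutant SPAAC. It was 0.10 for WT NADcapPro and −0.19 for mutant NADcapPro. The part of abundance in these counts was not tested.

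The effect of Dcs1 was read from NADcapPro against SPAAC in the same strain. In WT, 11 members were higher and 19 lower (median −0.20), where 43.0% of 6017 transcripts were higher and 41.5% lower, and with library totals the split turned to 25 higher and 6 lower (median 0.40) as the median of all transcripts moved from 0.02 to 0.63. The members that differed most from each other were alpha subunits. PRE9 was at 183, 192 and 188 CPM in WT SPAAC and 634, 633 and 652 in WT NADcapPro (1.63, SE 0.029, adjusted p = 7.41e-20). PRE8 was at 311, 307 and 306 CPM in WT SPAAC and 81.1, 83.2 and 84.3 in NADcapPro (−2.03, SE 0.029, adjusted p = 4.33e-21). The library groups of both transcripts stood clear of each other, in opposite order. These fold changes come from fits that normalise the compared groups alone, so they can differ from the ratio of the printed CPM, with a shift of all transcripts of 0.14 in WT and 0.21 in the mutant.

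RPN2 (1.58) and PRE5 (1.14) were the other members at least 2-fold higher in WT NADcapPro than in WT SPAAC, and RPN11 (−1.13) the other one lower. The shift of all transcripts with library totals in WT would take RPN11 under 2-fold and put RPT6 (0.67) past it. In the mutant, 30 members were lower and 2 higher in NADcapPro than in SPAAC (median −0.97), where 42.3% of 6039 transcripts were lower and 44.3% higher, or 19 lower and 9 higher with library totals (median −0.17). At least 2-fold lower were 16 members, against 17.8% of all transcripts. With library totals the median of all transcripts moved from 0.04 to 0.85. That shift would leave PRE8 (−2.46) and RPN11 (−2.30) past 2-fold and take others, such as SEM1 and RPN7, under it. The exceptions were RPN2 (0.87) and PRE9 (0.75), and PRE5 did not pass the test (−0.08, adjusted p = 0.0237). SEM1, for example, was at 187, 184 and 182 CPM in mutant SPAAC and at 72.4, 68.1 and 67.1 in mutant NADcapPro (−1.62, SE 0.037). RPN7, a lid scaffold, was at 294, 297 and 304 CPM and at 118, 125 and 124 (−1.49, SE 0.033). Across all transcripts, NADcapPro over SPAAC had a Spearman rho with mean RNA-seq TPM of −0.27 in WT and −0.48 in the mutant. The part of abundance in these counts was not tested.

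Standard RNA-seq differed little between the strains for these genes. Against WT, 7 members were higher and 8 lower in xrn1-H41A, with a median of 0.01, where 36.2% of 5965 transcripts were higher and 34.8% lower. None differed by 2-fold, against 7.69% of transcripts higher and 2.53% lower. With library totals the split was 21 higher and 3 lower, and the median of all transcripts moved from 0.00 to 0.18. RPN8, the partner of Rpn11 in the lid, had the highest value, at 241, 243 and 235 CPM in WT and 353, 346 and 349 in the mutant (0.54, SE 0.039, adjusted p = 6.09e-09). RPN2 was at 553, 539 and 562 CPM in WT and 690.5, 713 and 735 in the mutant (0.37, SE 0.038, adjusted p = 3.83e-07). RPT2 had the lowest value, at 289, 291 and 294 CPM in WT and 225, 223 and 219 in the mutant (−0.39, SE 0.036, adjusted p = 9.67e-08). The next lowest was PRE3 (−0.37, SE 0.046, adjusted p = 3.01e-06). RPN4, the gene of their transcription factor, was at 90.2, 88.2 and 85.8 CPM in WT and 125, 126 and 122 in the mutant, without overlap (0.50, SE 0.038, adjusted p = 1.41e-08).

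In the mutant, NADcapPro put most members below RNA-seq. There, 22 members were lower and 7 higher, with a median of −0.47, where 41.4% of 6046 transcripts were lower and 43.0% higher. With library totals the split was 17 lower and 13 higher, with the median of all transcripts at 0.28 in place of 0.02 and that of the members at −0.21. RPT5, PRE8, RPN11, RPN1 and RPN3 were depleted at least 2-fold (9.87% of all transcripts), and none was enriched at least 2-fold (14.3%). The shift of all transcripts with library totals would take RPN11 (−1.10) and RPN1 (−1.06) under 2-fold and leave RPT5 (−1.37) past it. All 9 lid members were lower, with a median of −0.65, and of the base 7 were lower and 3 higher. In the core 6 were lower and 4 higher.

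RPT5, an ATPase of the base, was at 239, 236 and 252 CPM in mutant RNA-seq and at 91.4, 91.8 and 87.9 in mutant NADcapPro (−1.37, SE 0.039, adjusted p = 9.75e-14). In WT the same transcript was at 230.5, 239 and 249 CPM and at 198, 201 and 194, so it was lower in both strains and further apart in the mutant. RPN11 was at 172, 175 and 177 CPM in mutant RNA-seq and 82.0, 79.5 and 75.4 in NADcapPro (−1.10, SE 0.037, adjusted p = 7.51e-13). The highest values belonged to PRE3 (0.60, SE 0.041, adjusted p = 2.75e-09) and RPT6 (0.59, SE 0.035, adjusted p = 3.76e-10), which had also been enriched in WT.

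**Figure D4:**
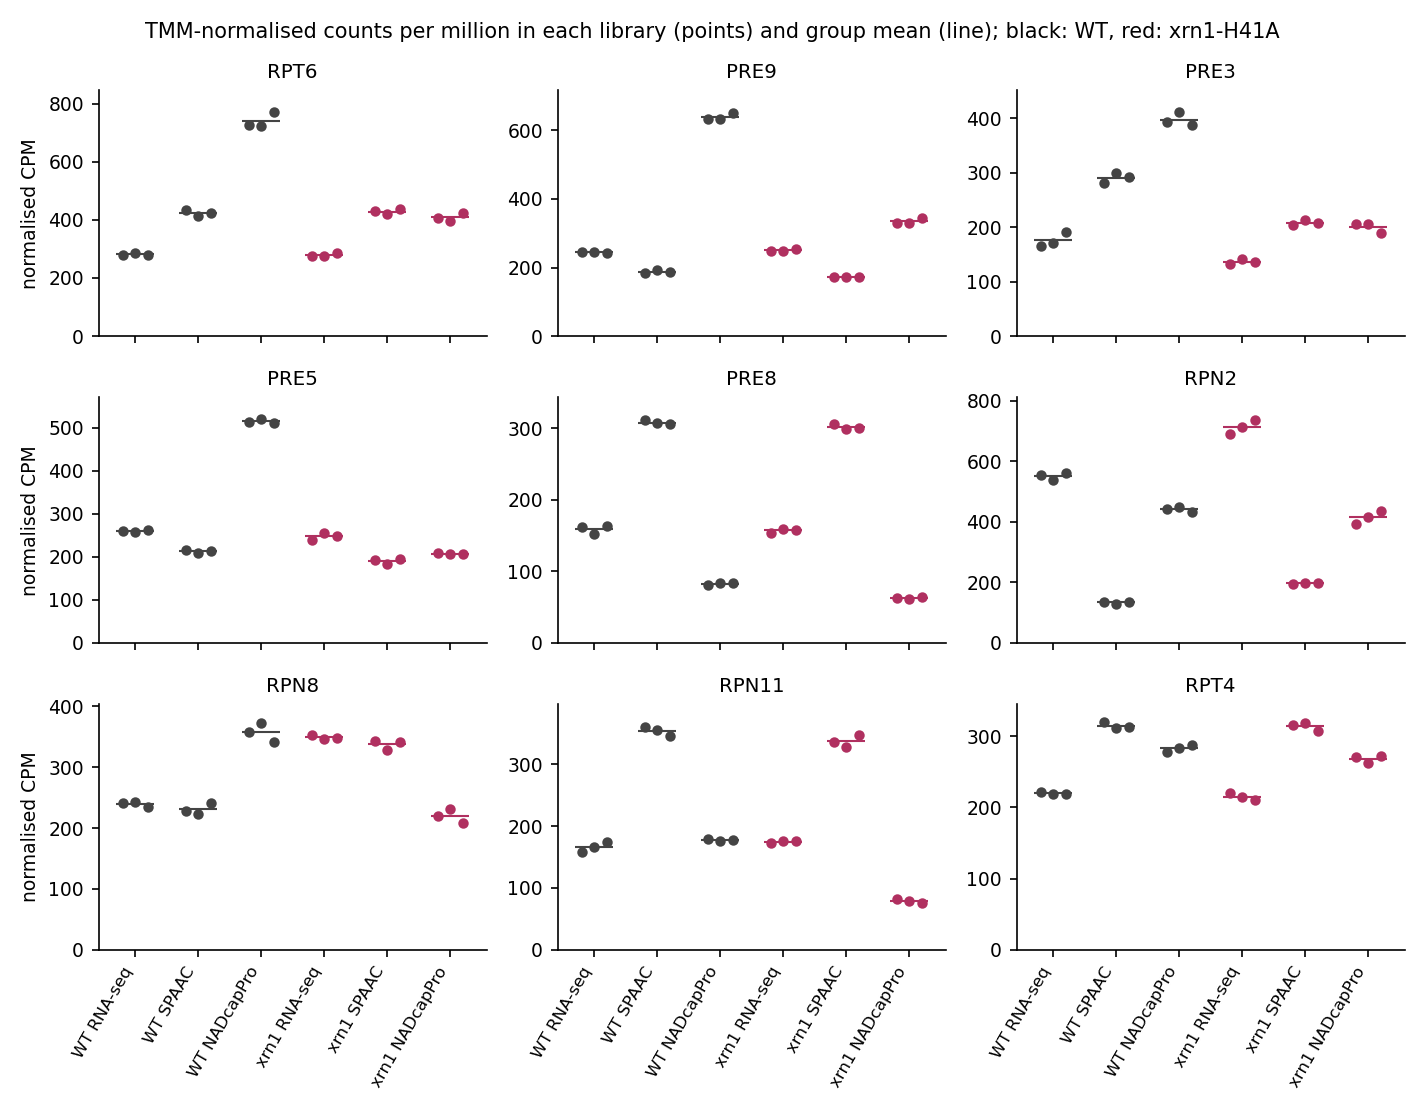
Normalised CPM of 9 members in each of the 18 libraries (points) with the group mean (line), WT in black and xrn1-H41A in red, on axes that start at 0. PRE9 and PRE8 separate NADcapPro from SPAAC in opposite directions, RPN11 is at 177 to 179 in WT NADcapPro and at 75.4 to 82.0 in the mutant, and RPT4 differs little between strains.

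The difference between the strains was tested as an interaction, the log2 fold change of NADcapPro over RNA-seq in xrn1-H41A minus that in WT, in one model of the 12 libraries. It was below 0 and passed the test for 32 of the 33 members, and none was higher, also at an unadjusted p under 0.05 and in DESeq2's Wald test. Across 6059 transcripts, 30.2% were lower and 33.7% higher. The median was −0.74 for the members and 0.05 for all transcripts, and 7.79% of all transcripts lay below the members' median. The calls reached every part of the proteasome, with 14 of 14 core members (median −0.80), 9 of 10 base members (median −0.74) and 9 of 9 lid members (median −0.88). RPT4, an ATPase of the base, was the exception and was singled out for its value. It was at 221, 218 and 219 CPM in WT RNA-seq, 278, 283 and 288 in WT NADcapPro, 219.6, 214 and 211 in mutant RNA-seq and 271, 262 and 272 in mutant NADcapPro (0.02, SE 0.045, adjusted p = 0.762).

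At least 2-fold lower in the mutant were RPN8, PRE5, RPN11, RPN12, PRE1 and RPT5, or 6 of 33 members against 2.94% of all transcripts, and none was 2-fold higher (4.19% of all). RPT5 (−1.08) was the nearest to 2-fold, and the shift of all transcripts with library totals (0.097) would take it under. PRE5, an alpha subunit, was at 259, 259 and 262 CPM in WT RNA-seq and 513, 521 and 509.7 in WT NADcapPro, and at 238, 255 and 249 in mutant RNA-seq and 208, 207 and 207 in mutant NADcapPro. NADcapPro was thus far above RNA-seq in WT and below it in the mutant, with no overlap in either (interaction −1.18, SE 0.043, adjusted p = 1.38e-13). PRE1, a beta subunit, showed the same order, with 226, 233 and 207 CPM against 346, 361 and 351 in WT, and 184, 190.2 and 188 against 129, 129.7 and 127 in the mutant (−1.15, SE 0.056, adjusted p = 3.88e-12). RPN8 was at 358, 372 and 341 CPM in WT NADcapPro and at 220.3, 231 and 209 in mutant NADcapPro, while its RNA-seq level was higher in the mutant (−1.18, SE 0.056, adjusted p = 2.9e-12). RPN12, a lid subunit, was at 115, 124 and 116 CPM in WT RNA-seq and 173, 169.7 and 171 in WT NADcapPro, and at 124, 126 and 124 and then 75.6, 76.0 and 79.1 in the mutant (−1.17, SE 0.047, adjusted p = 3.63e-13).

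Members with high WT enrichment moved down as well as those without. PRE9 was still above RNA-seq in the mutant, at 248, 249 and 255 CPM against 330.0, 331 and 346, yet its interaction was −0.90 (SE 0.042, adjusted p = 2.42e-12). RPT6 likewise had −0.79 (SE 0.048, adjusted p = 7.01e-11). PRE8, the lowest core member in both strains, had −0.31 (SE 0.046, adjusted p = 9.4e-06). The order of the members was largely kept: across the 33 the WT and mutant values of NADcapPro over RNA-seq, which share no library, had a Pearson r of 0.84 and a Spearman rho of 0.80, given as a description.

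The same interaction for SPAAC was small. It passed for 6 members, 5 higher and 1 lower, with a median of 0.00 against −0.04 for all 6010 transcripts, of which 9.55% were higher and 14.0% lower. Its values ran from −0.20 (PUP3) to 0.33 (RPN1), none of them 2-fold (0.0998% of all transcripts higher and 0.566% lower). The calls did not hold when a replicate was left out, with 1 to 3 members higher and 0 lower.

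**Figure D5:**
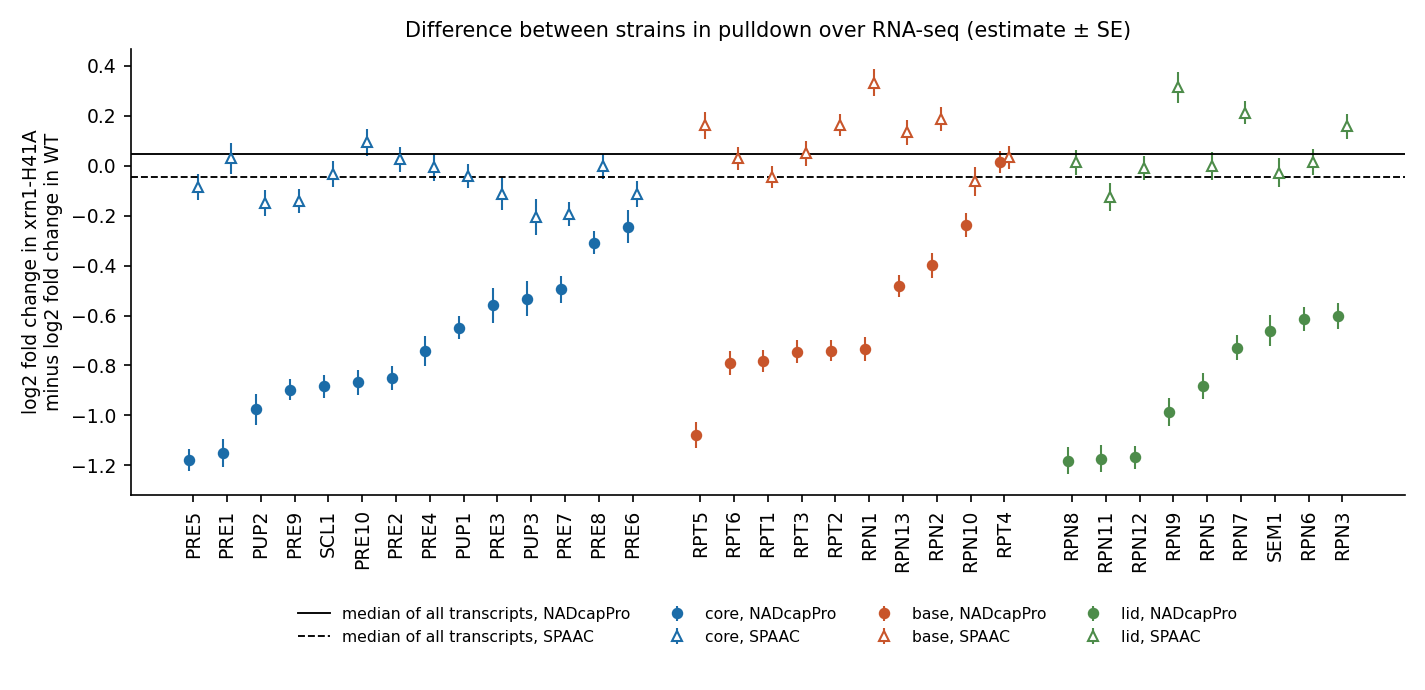
Difference between strains in log2 fold change over RNA-seq for each member, with its SE, for NADcapPro (filled circles) and SPAAC (open triangles), and the medians of all transcripts as lines. The NADcapPro values run from −1.18 to 0.02 with a median of −0.74, and the SPAAC values from −0.20 to 0.33 with a median of 0.00.

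The NADcapPro interaction held its count across the settings tried, with 30 members lower and none higher under library totals and 31 lower and none higher with the length trend removed. Length did not move with it among the members (rho −0.028), but across all 6059 transcripts the rho with length was 0.22. Abundance moved with it more strongly across all transcripts: the Spearman rho between the interaction and mean RNA-seq TPM was −0.45. When all transcripts were split into 10 equal bins of RNA-seq TPM, the median interaction went from 0.53 in the lowest bin to −0.29 and −0.41 in the highest 2, which hold 30 of the 33 members. In the bin from 94.6 to 187 TPM the 16 members had a median of −0.74, with 12 below the lower quartile of that bin (−0.61). In the top bin the 14 members had a median of −0.75, with 7 below its lower quartile (−0.74). The part of abundance in the result was not otherwise tested.

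Genes that act with the proteasome gave other counts. The 10 assembly factors, chaperones that build the complex and leave it, had 3 lower and 1 higher in the NADcapPro interaction, with a median of −0.12, where 30.2% of all transcripts were lower and 33.7% higher, so their count of lower calls was near the background. UMP1, the maturation factor of the core, was among those lower (−0.38, SE 0.060), and HSM3, a chaperone of the base, was the one higher (0.36, SE 0.066). In WT NADcapPro over RNA-seq 9 of the 10 were higher, against 41.1% of all transcripts, with IRC25 the highest at 1.34. In the mutant 9 were higher, against 43.0%. Of the 9 regulators and bound proteins, 6 were lower and 2 higher in the interaction (median −0.31), read against the same 30.2% and 33.7% of all transcripts. UBP6, a deubiquitinase bound to the base, had −1.04 (SE 0.049), RPN4 had −0.58 (SE 0.046) and BLM10, an alternative activator of the core, had 0.84 (SE 0.050). ECM29, which holds core and regulatory particle together, was higher in the interaction (0.42) and lower in mutant than in WT RNA-seq (−0.96, SE 0.044).

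The members did not all follow the summed level across the 18 libraries. The Pearson r of log2 CPM between a member and the sum of the other 32 was highest for PRE1 (0.98) and RPN12 (0.97) and lowest for RPN2 (−0.61), PRE9 (−0.08) and RPN1 (0.06). The 18 libraries fall into 6 groups of 3, so these values describe the pattern over groups. Among 5759 other transcripts with at least 10 counts in every library, the pattern most like that of the summed level was that of PAA1, a polyamine acetyltransferase (r = 0.98), DIM1, an rRNA dimethyltransferase (r = 0.98), and FTH1, a vacuolar iron transporter subunit (r = 0.97).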

How the data were processed

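The authors trimmed reads with fastp 0.23.2, discarded rRNA reads by alignment with hisat2 and quantified the rest with kallisto 0.48.0 against the RefSeq transcripts of assembly R64 (versions per the submitters' processing notes). The authors deposited estimated counts per transcript, rounded to whole numbers, with transcript and effective lengths. Deposited TPM values were not used, and TPM was recomputed from counts and effective lengths. The labels name total RNA and the methods polyA RNA for the pulldowns. The input of standard RNA-seq and the strand setting are not given in the sources used here. The 18 libraries were grouped by strain and assay from their labels. The labels give a negative control for each strain, but the names of the 2 sets of values without ADPRC do not say which strain each is, so they were not used. The reference used here holds 6098 of the 6106 transcripts, at equal length. Lengths are multiples of 3, and so coding lengths, for 97.8%.

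Counts were tested with edgeR 4.0.16 in R 4.3.3 (glmQLFit, glmQLFTest) after TMM normalization and filterByExpr, using the libraries of the compared groups, or 12 libraries for the strain by assay interactions. Alternatives used DESeq2 1.42.0 and apeglm 1.24.0, other scalings and filters, an adjusted p of 0.05, all 18 libraries, a replicate block, each library's length trend taken out (lowess, span 0.3), and each replicate left out. Standard errors were derived from the F statistic. On simulated counts with 200 changed transcripts the test recovered 200 with 5 false calls among 6023 tested (WT NADcapPro against RNA-seq). For the interaction it recovered 198 with 5 false calls among 6054. In the libraries themselves, 41.1% of transcripts were higher and 40.5% lower in WT NADcapPro over RNA-seq. Recovery with shares that large was not tested. Tables used SciPy 1.17.1, NumPy 2.4.6 and pandas 2.3.3 under Python 3.11.15.

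The members and lists were chosen with earlier results of these data known. Named members are the 2 highest and 2 lowest in each NADcapPro comparison and in RNA-seq between strains, up to 10 of those past 2-fold with the largest change, those with the highest and lowest TPM, and SEM1, with RPN4, XRN1 and the 3 transcripts most like the summed level. The others were named after their values were seen. Same-numbered libraries did not deviate together (r from −0.115 to 0.140), so replicates were not paired. Reads carry no molecular identifiers. The p-values set the difference between groups against the spread between biological replicates, which edgeR estimates for each transcript with information from all transcripts.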

Additional observations from a re-analysis of the deposited data

Results flagged for a closer look

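For 6 members and 1 gene that acts with them, the change of NADcapPro over RNA-seq differed between the strains by more than 2-fold in the interaction test, with the value in xrn1-H41A minus that in WT given on the log2 scale. The lid members were RPN8 (−1.18), RPN11 (−1.17) and RPN12 (−1.17). The core members were PRE5 (−1.18) and PRE1 (−1.15), and the base member was RPT5 (−1.08). UBP6, the deubiquitinase bound to the base, had −1.04. With library totals the median of all transcripts in this test moved from 0.05 to 0.14, a shift that would take RPT5 and UBP6 under 2-fold. In RPN8, PRE5, PRE1 and RPN12 the libraries of NADcapPro lay above those of RNA-seq in WT and below them in the mutant. RPN11 had the same order, but its WT log2 fold change was 0.09 and was not called.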

How the results depend on the processing

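The counts of members called kept within 1.5 times of the values given in 218 of 248 alternatives. For single genes, 776 of 778 alternative values kept their direction and their side of the adjusted p threshold. They cover 56 values of 24 members, either past 2-fold or among the highest and lowest in the NADcapPro and strain comparisons. The other values named above were not tried this way. Whether a change stayed past 2-fold was not checked. The exceptions among genes were both RPN1 in WT SPAAC over RNA-seq, at 0.12 with the length trend removed, with and without the replicate block. The medians of the members and parts and the ratios of core to base and lid held less well. Of 1250 alternative values that hold these and the single genes, 232 moved by more than the SD of replicate libraries. All 232 were medians or ratios. Scaling by library totals alone moved the most counts: lower in WT SPAAC over RNA-seq (9), higher (25) and lower (6) in WT NADcapPro over SPAAC, higher in mutant NADcapPro over RNA-seq (13), higher (9) and lower (19) in mutant NADcapPro over SPAAC, and higher (21) and lower (3) in RNA-seq between strains. Removing the length trend gave 8 lower in WT NADcapPro over RNA-seq, 8 lower in WT SPAAC over RNA-seq and 4 higher in mutant NADcapPro over RNA-seq, and with the replicate block added the last 2 were again 8 and 4. The strain difference in SPAAC enrichment gave 8 higher and 0 lower with DESeq2's size factors, 9 and 0 with DESeq2's Wald test, 8 and 0 with the length trend removed, with or without the replicate block, 2 lower with all 18 libraries, and 8 higher and 4 lower at an adjusted p of 0.05. Leaving out a replicate gave 1 to 3 higher and 0 to 0 lower there. The strain difference in NADcapPro enrichment had 30 to 32 members lower under every alternative, 32 with the replicate block alone. The replicate block, which the data gave no ground for pairing, changed no other call count past 1.5 times (25 higher and 5 lower in WT NADcapPro over RNA-seq, 5 and 8 in RNA-seq between strains). Counts are relative within a library, so no setting here can show a change in total RNA recovered by a pulldown.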

Other observations

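Genes of the ubiquitin system and of Cdc48, the ATPase that delivers ubiquitinated proteins to the proteasome, were read from a list of 17. In the NADcapPro difference between strains 12 were lower and 4 higher, with a median of −0.42 (30.2% of all transcripts were lower and 33.7% higher). CDC48 had −0.69 (SE 0.038), UFD1, a cofactor of Cdc48, −0.70 (SE 0.070) and UBC4, a ubiquitin-conjugating enzyme, −0.51 (SE 0.048). The ubiquitin ligases RSP5 (0.83, SE 0.065) and UBR1 (0.74, SE 0.058) went up. RPL40A (−0.87) and RPL40B (−0.56) encode the same ubiquitin fusion protein and have 67.2% and 66.9% of their 31-mers to themselves, so their values are uncertain.

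In standard RNA-seq UBI4, the polyubiquitin gene, was higher in xrn1-H41A than in WT (0.98, SE 0.040, adjusted p = 1.04e-11 in edgeR's quasi-likelihood test), beside RPN4 at 0.50. Of the list, 3 genes were higher and 10 lower in that comparison, with a median of −0.18 (36.2% of all transcripts were higher and 34.8% lower). NPL4 (0.50) and UFD1 (0.42), the pair of cofactors of Cdc48, were the others higher.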
